A study of Mus musculus with 12 samples.

Results

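The genes described are the interleukin-1 receptor family around ST2, measured by RNA-seq in Ocy454 osteocytes. They were chosen by name and matched by Ensembl mouse gene ID: the receptor ST2 (Il1rl1), its ligand IL-33 (Il33), the shared receptor subunit Il1rap, the IL-1 receptor Il1r1, the receptor antagonist Il1rn, and the ligands Il1a and Il1b. These 7 genes were found in every library, among 37583 gene IDs. The family was selected on an earlier reading of the same data, in which Il1rl1 stood among the genes most raised by fluid flow shear stress (FFSS) in control cells. Its values in control FFSS, and the difference of the FFSS effect between genotypes, are therefore given as a description, with no test, for whichever of the 7 genes could be fitted. The same holds for Il1rl1 between genotypes under FFSS. The other members were tested in that comparison. It uses the same control FFSS libraries, so those results are not independent of the choice of the family.

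Ocy454 is an osteocyte line from mouse long bone, and per the study's methods a sub-clone grown from 1 cell was used. Control libraries came from cells labelled as control, and DKO libraries from cells labelled as deleted for HDAC4 and HDAC5, the class IIa histone deacetylases. The methods say, in a passage on FAK deletion, that control cells had received a guide vector without a guide. Whether this holds for the control libraries used here is not stated. Both lines were kept static or exposed to FFSS for 3 h by rotating the dishes on a platform, and each of the 4 groups had 3 libraries, 12 in all. The sources used here do not say whether the DKO cells were 1 clone, so genotype and cell line cannot be told apart. Nothing says that libraries came from separate cultures, and p-values then measure only the spread between these libraries, which may be technical.

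Receptors of this family share an intracellular signalling domain. A ligand bound to its own receptor, IL-33 to ST2 or IL-1 to the IL-1 receptor, recruits the accessory protein encoded by Il1rap, and the complex signals through MyD88 and IRAK kinases to NF-kB and MAP kinases. The antagonist Il1rn occupies the IL-1 receptor without recruiting the accessory protein. ST2 is best known on mast cells, type 2 innate lymphoid cells and regulatory T cells, and it is also made as a soluble protein that binds IL-33 without signalling. IL-33 is a nuclear protein of stromal and barrier cells that is released on damage, and in bone the IL-1 family is known for its effects on the bone-resorbing osteoclast.

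Il1rl1 lies at chr1:40486415-40522260 on the plus strand of mm9, the build of the counts, and has 5 annotated transcripts. RefSeq gives it a pair of starts 10.1 kb apart. Both upstream windows are shown because background knowledge of this gene assigns its distal and proximal starts to different cell types, and because Il1rl1 had the largest FFSS difference of the family. The 3 sequences are the 250 bases before a RefSeq start (RefSeq table of GRCm38.p6, each found at exactly 1 place in mm9), 5′ to 3′, with matches to the GATA motif in capitals. That motif was searched on both strands as the word GATA preceded by an adenine or thymine and followed by an adenine or guanine, with overlapping matches counted, so that a match on the other strand reads as the word TATC.
Il1rl1 distal window, chr1:40486165-40486414 (mm9, plus strand): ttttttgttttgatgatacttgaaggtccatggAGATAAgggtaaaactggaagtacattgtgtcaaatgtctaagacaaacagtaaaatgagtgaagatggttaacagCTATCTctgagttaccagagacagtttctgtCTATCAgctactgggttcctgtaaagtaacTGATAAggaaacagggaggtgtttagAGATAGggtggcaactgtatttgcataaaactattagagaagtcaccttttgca
Il1rl1 proximal window, chr1:40496224-40496473 (mm9, plus strand): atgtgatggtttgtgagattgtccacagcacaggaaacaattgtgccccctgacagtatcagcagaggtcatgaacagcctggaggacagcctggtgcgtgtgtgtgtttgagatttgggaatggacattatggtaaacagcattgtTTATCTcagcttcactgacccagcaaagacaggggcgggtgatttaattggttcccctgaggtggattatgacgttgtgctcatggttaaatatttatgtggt
Il18rap window, chr1:40571957-40572206 (mm9, plus strand): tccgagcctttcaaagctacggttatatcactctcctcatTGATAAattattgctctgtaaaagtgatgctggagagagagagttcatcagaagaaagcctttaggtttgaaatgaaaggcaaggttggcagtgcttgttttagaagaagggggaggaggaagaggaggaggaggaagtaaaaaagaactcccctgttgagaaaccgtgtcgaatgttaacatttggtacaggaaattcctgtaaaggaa

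The distal Il1rl1 window held 5 GATA matches, 37.6% G and C and 0 CpG dinucleotides. Of the 32851 windows of this length in the table, 26.5% held at least 1 such match and 0.0426% held 5 or more. The proximal window held 1 match, 46.4% G and C and 3 CpG. The Il18rap window, shown because that neighbouring receptor gene is described with Il1rl1 below, held 1 match. All 7 genes had a window, 12 windows in all. The AP-1 motif TGANTCA, present in 6.75% of all windows, was in the Il1rl1 windows 0 times and in 1 window each of Il1rn and Il1a. The NF-kB motif was in 1 window of Il1r1 (7.25% of all windows), and the MEF2 motif (2.92%) and the CArG box (1.47%) were in none of the 12. Both Il33 windows, whose starts lie 20.7 kb apart, held none of these 5 motifs. The Il1rap window stood apart by composition, with 74.4% G and C and 30 CpG against medians of 52.4% and 6 over all windows. These matches describe letters only.

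The libraries held between 17.6 and 19.2 M reads assigned to genes. Levels are given as CPM (read counts scaled by library totals, here after TMM adjustment). A count of 3, used as the detection floor, corresponded to between 0.156 and 0.171 CPM by library totals alone, without the TMM adjustment. Control FFSS replicate 1 stood apart from replicates 2 and 3 of its group, with a chi-square per degree of freedom over genes of 63.8 and 58.0 against 6.45 between replicates 2 and 3, and between 2.02 and 5.66 in the other groups. The share of reads falling outside genes, as a percentage of assigned reads, was between 5.54 and 5.67 in static control libraries and 6.44, 10.4 and 11.5 in control FFSS replicates 1, 2 and 3, while static DKO libraries had 7.84 to 7.93 and DKO FFSS libraries 8.89 to 9.64. It moved with the FFSS values below, and its part in them was not tested beyond a fit that carries it as a covariate. Markers of the osteocyte did not move together: Sost, Phex, Dmp1 and Mepe were lower in the control line, with Mepe at 0 to 4 reads in its 6 libraries, Pdpn was higher there (28.4 CPM in control static against 5.11 in DKO static), and Fgf23 had at most 1 read. The sum over these 6 genes was between 78.1 and 117 CPM in control static and between 3600 and 3687 CPM in DKO static. The targeted Hdac4 has 2 gene IDs. ENSMUSG00000026313 had 550, 458 and 484 reads in static control libraries and 220, 309 and 259 in static DKO libraries, and under FFSS 597, 775 and 860 against 239, 214 and 250. ENSMUSG00000073617 had between 403 and 606 reads in the control libraries and between 270 and 325 in the DKO libraries. Both IDs were thus lower in DKO, with no overlap. The other targeted gene, Hdac5, had fewer reads in static DKO libraries (1503, 1461 and 1634) than in static control libraries (2473, 2706 and 2421), but under FFSS the DKO libraries (1687, 1553 and 1660) and control libraries (1755, 1457 and 1664) overlapped. A gene's count does not show whether its protein is lost.

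Il1rl1, which encodes ST2, had 64, 93 and 89 reads in static control libraries and 316, 709 and 553 under FFSS. In DKO cells it had 64, 67 and 53 reads when static and 120, 121 and 151 under FFSS. The 3 control FFSS libraries were the highest of the 12, the DKO FFSS libraries came next, and both static groups overlapped each other. In control cells the mean level was 4.30 ± 0.801 CPM static and 26.1 ± 9.26 CPM under FFSS, and in DKO cells 3.38 ± 0.386 CPM static and 7.42 ± 0.927 CPM under FFSS (SD, n = 3 each). The ratio of FFSS to static was 6.06 in control, a log2 fold change of 2.60 with a standard error (SE) of 0.25. Measured against the static mean, the 3 control FFSS libraries were higher by 1.91, 2.99 and 2.66 on the log2 scale, the lowest being replicate 1. Without that replicate the log2 fold change was 2.85, and with the share of reads outside genes as a covariate it was 1.83.

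In DKO cells the ratio of Il1rl1 under FFSS to static was 2.20. The log2 fold change was 1.13 (SE 0.28, 95% interval 0.59 to 1.68), and the 3 FFSS libraries were higher than the static mean by 0.96, 1.07 and 1.30. All 3 FFSS libraries lay above all 3 static ones, but with the spread estimated over all 12 libraries the adjusted p was 0.0879 by edgeR's quasi-likelihood test, and the gene was not called. A call requires a change over 2-fold and a Benjamini-Hochberg adjusted p under 0.05 over the 14904 genes tested, and for FFSS in DKO 0.0872% of genes met both. The adjusted p was 2.77e-05, 0.0283 and 0.0971 without control FFSS replicates 1, 2 and 3, and 1.11e-05 with the 6 DKO libraries alone, while the log2 fold change in these 4 fits stayed between 1.13 and 1.14. DESeq2 gave 0.00159 and the replicate block 0.0428. Over 20 alternatives the adjusted p ran from 1.11e-05 to 0.276, and 5 of them made the call.

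The FFSS difference of Il1rl1 was smaller in DKO than in control by 1.46 on the log2 scale (log2 fold change of the interaction −1.46, SE 0.38), with alternatives between −1.71 and −0.94. Between genotypes in static cells Il1rl1 gave a log2 fold change of −0.35 (standard error 0.29, adjusted p = 0.345 by edgeR), with an interval from −0.92 to 0.23, and the groups overlapped. With the covariate it was −0.78 (adjusted p = 0.00557 by edgeR), still under 2-fold. Under FFSS the DKO libraries were all below the control libraries, 3.51-fold by the means (log2 fold change −1.81, SE 0.24). The annotation has long transcripts ending at the 3′ end of the gene and short ones, the longest of which ends 17.3 kb before the end of the gene. The counts are per gene, so transcripts for membrane-bound and soluble ST2 are summed in these values. In bulk cultures, fewer cells making a transcript and less of it per cell cannot be told apart.

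**Figure D1:**
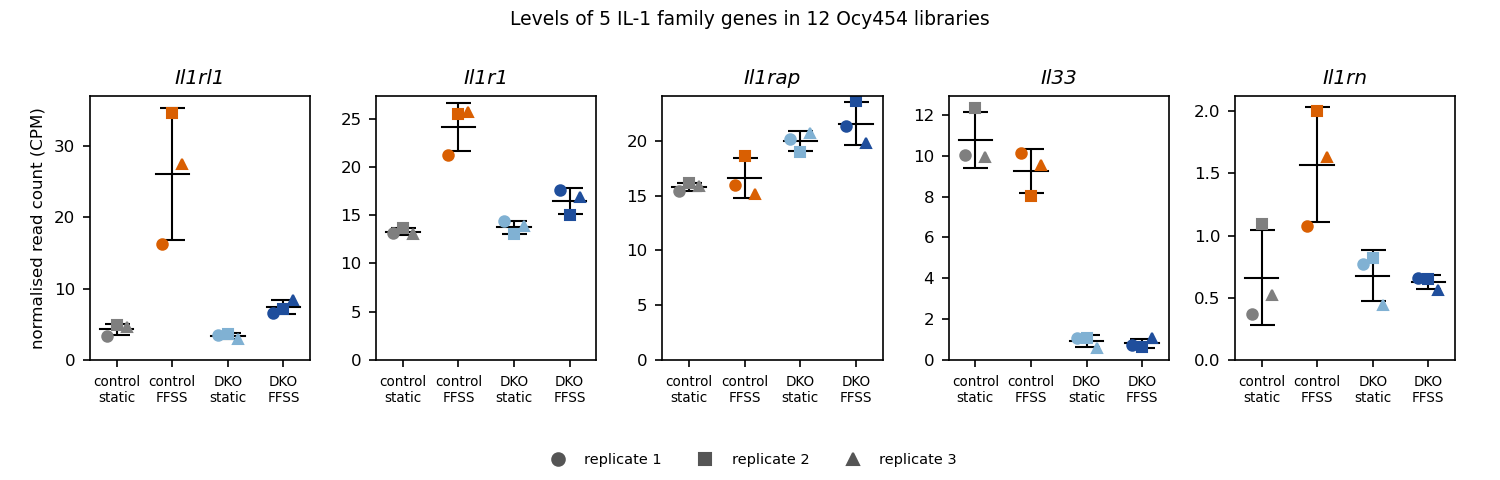
Normalised read count (CPM, linear axis from 0) of Il1rl1, Il1r1, Il1rap, Il33 and Il1rn in the 12 libraries by group, with the mean (bar) and SD (whisker) of 3 libraries and the replicate number as the symbol. Il1rl1 reached 26.1 CPM in control FFSS and 7.42 CPM in DKO FFSS, and Il33 stayed at or below 1.10 CPM in all 6 DKO libraries.

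Il1r1, the signalling receptor for IL-1 (chr1:40281925-40373043, plus strand), had 249, 263 and 248 reads in static control libraries and 414, 523 and 519 under FFSS. In DKO it had 261, 238 and 250 reads when static and 319, 252 and 302 under FFSS. The control FFSS libraries were the highest of the 12. Mean levels in control cells were 13.3 ± 0.345 CPM static and 24.2 ± 2.51 CPM under FFSS, and in DKO cells 13.8 ± 0.655 and 16.5 ± 1.37 CPM (SD, n = 3). FFSS against static gave a ratio of 1.82 in control (log2 fold change 0.86, SE 0.09). It was 0.94 without control FFSS replicate 1 and 0.64 with the share of reads outside genes as a covariate. In DKO the ratio was 1.20 (log2 fold change 0.26, SE 0.10), and the edgeR adjusted p of 0.242 did not pass, with an interval from 0.07 to 0.45 on the log2 scale; without control FFSS replicate 1 it was 0.0407, still under 2-fold. The difference between these effects was −0.60 (SE 0.13), or −0.45 with the covariate. In static cells Il1r1 gave a log2 fold change of 0.05 between genotypes (SE 0.10, edgeR adjusted p = 0.701, interval −0.14 to 0.24). Under FFSS it was lower in DKO, with a log2 fold change of −0.55 (standard error 0.09, adjusted p = 0.000172 by edgeR). The groups did not overlap, but the change was under 2-fold and therefore not a call. This comparison also uses the control FFSS libraries that led to the choice of the family.

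Il1rap, the accessory subunit that both receptors recruit (chr16:26581790-26730203, plus strand), differed least with FFSS among the 3 receptor genes. Control libraries had 292, 310 and 302 reads when static and 311, 382 and 306 under FFSS. DKO libraries had 367, 347 and 374 reads when static and 386, 398 and 354 under FFSS. Between static and FFSS the groups overlapped in both lines, with log2 fold changes of 0.07 (SE 0.09) in control and 0.11 (SE 0.09, edgeR adjusted p = 0.693) in DKO, and a difference between these effects of 0.04 (SE 0.13). The reads overlapped between genotypes under FFSS. In CPM, which allows for library size, the DKO libraries were above the control libraries in both conditions, narrowly under FFSS (lowest DKO 19.8 CPM, highest control 18.6 CPM). The log2 fold change between genotypes was 0.34 in static (SE 0.09, edgeR adjusted p = 0.00748) and 0.38 under FFSS (SE 0.09, edgeR adjusted p = 0.00319), both under 2-fold. With library totals in place of TMM factors the FFSS value was 0.18, with an adjusted p of 0.134. An antisense gene overlaps Il1rap in exons and had 0 reads in all 12 libraries, and reads in the overlap are not counted for either gene.

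Il33, the ligand of ST2 (chr19:29999604-30035194, plus strand), had the largest genotype difference of the 5 tested members. Control libraries had 190, 237 and 189 reads when static and 197, 165 and 193 under FFSS, whereas DKO libraries had 20, 20 and 11 when static and 13, 11 and 19 under FFSS. The lowest control library therefore held 165 reads and the highest DKO library 20. In static cells DKO held 0.936 ± 0.281 CPM against 10.8 ± 1.36 CPM in the control line, 11.5-fold lower (log2 fold change −3.51 with an SE of 0.21, adjusted p = 6.87e-09 by edgeR). Under FFSS DKO held 0.812 ± 0.220 CPM against 9.24 ± 1.07 CPM, 11.4-fold lower (log2 fold change −3.49 with an SE of 0.21, adjusted p = 1.14e-08 by edgeR). Both were calls under each of the 20 alternatives, with log2 fold changes between −3.74 and −3.28. Between static and FFSS the groups overlapped in both lines: the log2 fold change was −0.22 (SE 0.15) in control and −0.20 (SE 0.30, edgeR adjusted p = 0.853) in DKO, whose interval from −0.79 to 0.38 leaves room for changes of either sign. The difference between these effects was 0.02 (SE 0.36). Endothelial cells are a known source of Il33, and their markers Pecam1, Cdh5, Kdr and Tek summed to at most 1.03 CPM in any library. Chondrocyte markers moved with the genotype difference: Sox9, Acan and Col2a1 summed to between 77.2 and 99.1 CPM in control static and between 1814 and 2298 CPM in DKO static, carried by Col2a1 (18, 19 and 173 reads against 31798, 29518 and 37616), while Acan overlapped between the lines. Their part in the Il33 difference was not tested.

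Il1rn, the receptor antagonist (chr2:24192373-24207014, plus strand), was read in small numbers. Control libraries had 7, 21 and 10 reads when static and 21, 41 and 33 under FFSS, and DKO libraries 14, 15 and 8 when static and 12, 11 and 10 under FFSS. Control FFSS was highest on average, at 1.57 ± 0.464 CPM against 0.663 ± 0.381, 0.679 ± 0.205 and 0.626 ± 0.0576 CPM in control static, DKO static and DKO FFSS (SD, n = 3). Its lowest library still overlapped control static. FFSS against static gave a log2 fold change of 1.24 in control (SE 0.36) and −0.12 in DKO (SE 0.42, edgeR adjusted p = 0.949), and the difference of these effects was −1.36 (SE 0.56). The control value was 0.66 with the covariate and 1.80 without control static replicate 2, its range over 20 alternatives, and the difference ran from −1.92 to −0.96. Between genotypes under FFSS Il1rn was lower in DKO, 2.51-fold by the means, with no overlap. The log2 fold change was −1.32 with an SE of 0.37 (adjusted p = 0.00697 by edgeR). This call held in each of the 20 alternatives. The control FFSS libraries that led to the choice of the family enter this comparison, so the call is not independent of that choice. In static cells the log2 fold change was 0.03 (SE 0.41, edgeR adjusted p = 0.954), and its interval from −0.78 to 0.84 is wide.

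The IL-1 ligands themselves were near or below the floor. Il1a (chr2:129125346-129135708, minus strand) had 0, 0 and 0 reads in static control libraries and 1, 1 and 2 under FFSS, and in the DKO libraries 0, 0 and 1 when static and 1, 0 and 1 under FFSS. Il1b (chr2:129190306-129196875, minus strand) had 1 read in control FFSS replicate 3 and 0 in the other 11 libraries. A count of 0 at this depth allows up to 3 reads, at most 0.171 CPM by library totals alone, and no difference between groups was detectable. Each overlaps a gene on the other strand, Gm14023 with 1 to 6 reads and Gm14047 with 0 to 3 reads per library, and reads shared by such a pair are lost from both. Both ligand genes failed the count filter and were not tested.

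Of the 5 tested genes, 0 were called for FFSS in DKO by edgeR, where 0.0872% of all genes were, and 2 had an unadjusted p under 0.05 (13.5% of all genes). DESeq2 called 1 of the 4 it tested, and 16 of 14904 genes in all. DESeq2 leaves some genes without an adjusted p. Here and below, 14904 is the number of genes it fitted, and the number it tested is smaller. For DKO against control in static cells 1 of 5 was called, where 15.3% of all genes were. Under FFSS 2 of the 4 tested genes were called between genotypes (Il33 and Il1rn), where 17.2% of all genes were. With so few members these shares say little against the background.

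**Figure D2:**
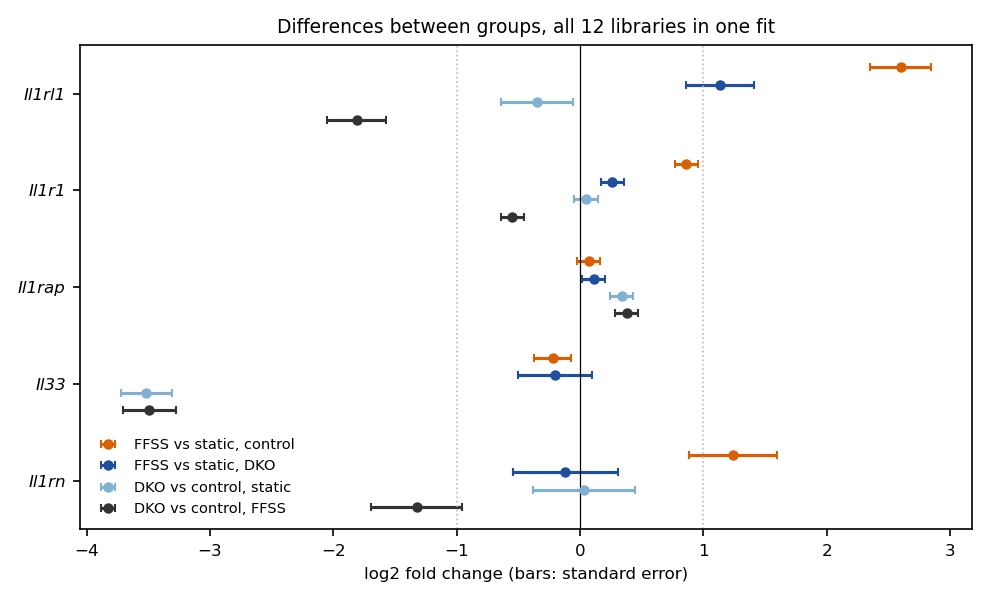
Log2 fold change of the 5 genes that passed the count filter in 4 comparisons, with standard errors as bars and dotted lines at a 2-fold change. Il33 lies near −3.5 in both genotype comparisons and near 0 in both FFSS comparisons, whereas Il1rl1 lies at 2.60 for FFSS in control and 1.13 for FFSS in DKO.

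Levels of different genes were compared per exonic length, as CPM per kb. This length counts every annotated exon of a gene, so it can exceed that of any single transcript. For Il1rap it was 11360 bases, while the longest transcript had 4520. For Il1r1 these lengths were 5056 and 4829 bases. The place of Il1rap in the orders below, above all against Il1r1, therefore depends on the length used. Orders by transcript length were not tested. In control static cells Il33 was highest at 3.75 ± 0.472, followed by Il1r1 at 2.63 ± 0.0683, Il1rap at 1.39 ± 0.0318, Il1rl1 at 0.624 ± 0.116 and Il1rn at 0.207 ± 0.119 (SD, n = 3), and no neighbours among these 5 genes overlapped. In control FFSS the order was Il1r1 at 4.78 ± 0.496, Il1rl1 at 3.78 ± 1.34 and Il33 at 3.22 ± 0.372, and then Il1rap at 1.46 ± 0.161 and Il1rn at 0.490 ± 0.145. There the range of Il1rl1, from 2.35 to 5.02, overlapped both its neighbours. In DKO static the order was Il1r1 at 2.72 ± 0.130, Il1rap at 1.76 ± 0.0775, Il1rl1 at 0.490 ± 0.0559, Il33 at 0.326 ± 0.0980 and Il1rn at 0.212 ± 0.0639, with Il33 and Il1rn overlapping. DKO FFSS kept this order, with Il1rl1 at 1.08 ± 0.135 and Il33 at 0.283 ± 0.0765, and no neighbours among these 5 genes overlapped. Il1a and Il1b were below all of these in each group. The transcript of the ligand of ST2 was thus above that of its receptor in control static cells, and below it in both DKO groups.

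**Figure D3:**
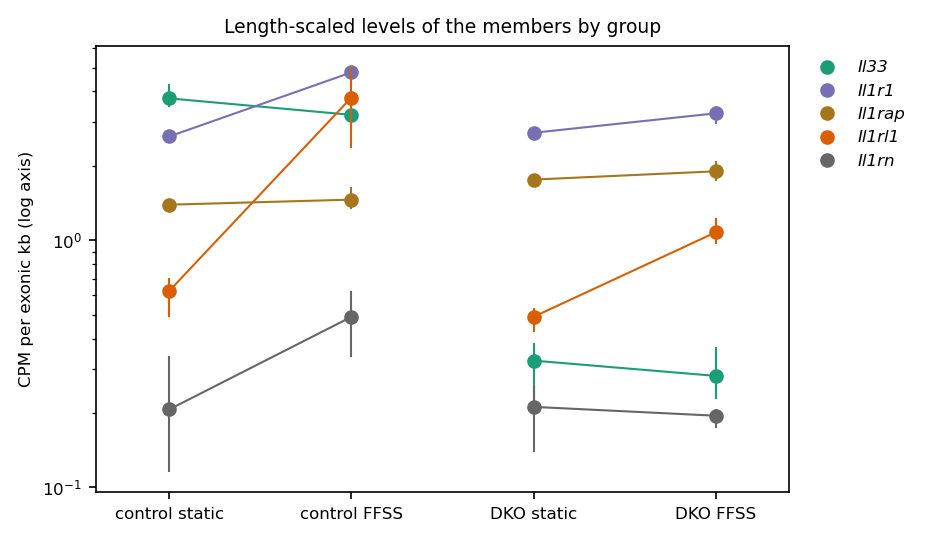
CPM per exonic kb (log axis) of 5 family genes in the 4 groups; points are means of 3 libraries, vertical lines run from the lowest to the highest library, and lines join static and FFSS of a genotype. In control cells Il1rl1 passed from 0.624 to 3.78 and in DKO cells from 0.490 to 1.08. The length counts every annotated exon of a gene, and the height of Il1rap against other genes depends on it.

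Il1r1 and Il1rl1 belong to a cluster of receptor genes on chromosome 1, all on the plus strand, in the order Il1r2, Il1r1, Il1rl2, Il1rl1, Il18r1 and Il18rap, with Map4k4 before it and Slc9a4 and Slc9a2 after it. Il18r1 begins 136 bases beyond the end of Il1rl1, and the 9 genes span 868 kb. Il18rap, the accessory subunit of the IL-18 receptor, rose under FFSS in control: it had 9, 11 and 17 reads in static and 44, 97 and 69 in FFSS libraries (log2 fold change 2.41 with an SE of 0.33, adjusted p = 0.000188 by edgeR). It was lower in DKO than in control both in static cells, with 1, 3 and 2 reads (log2 fold change −2.48 with an SE of 0.61, adjusted p = 0.00324 by edgeR), and under FFSS, with 5, 2 and 7 reads (log2 fold change −3.68 with an SE of 0.40, adjusted p = 2.80e-06 by edgeR). For FFSS in control 5.93% of all genes were called. All 3 calls of Il18rap held in each of the 20 alternatives. Its FFSS value in DKO was 1.22 (edgeR adjusted p = 0.545), and the difference between genotypes did not pass (edgeR adjusted p = 0.456). The receptor gene between them, Il18r1, which binds IL-18 itself, had 0 or 1 read in every library.

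Il1rl2, the receptor for IL-36, ran the other way within the same cluster. Control libraries had 0, 0 and 0 reads when static and 0, 4 and 1 under FFSS, whereas DKO libraries had 28, 27 and 23 when static and 44, 37 and 33 under FFSS. Every DKO library was above every control library. The DKO static level of 1.43 ± 0.138 CPM was at least 9.03-fold higher than in control static. This was taken against the highest floor of 3 counts in a control static library, 0.159 CPM by library totals alone. The count filter of the main test removes this gene because of its zeros. In the fit with no filter it passed in static (edgeR adjusted p = 2.64e-09) and under FFSS (edgeR adjusted p = 1.29e-09). This gene was singled out after its values were seen. Il1r2, the decoy receptor, had at most 5 reads in any library, and Map4k4, a kinase gene at the edge of the cluster, had between 5093 and 9420.

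**Figure D4:**
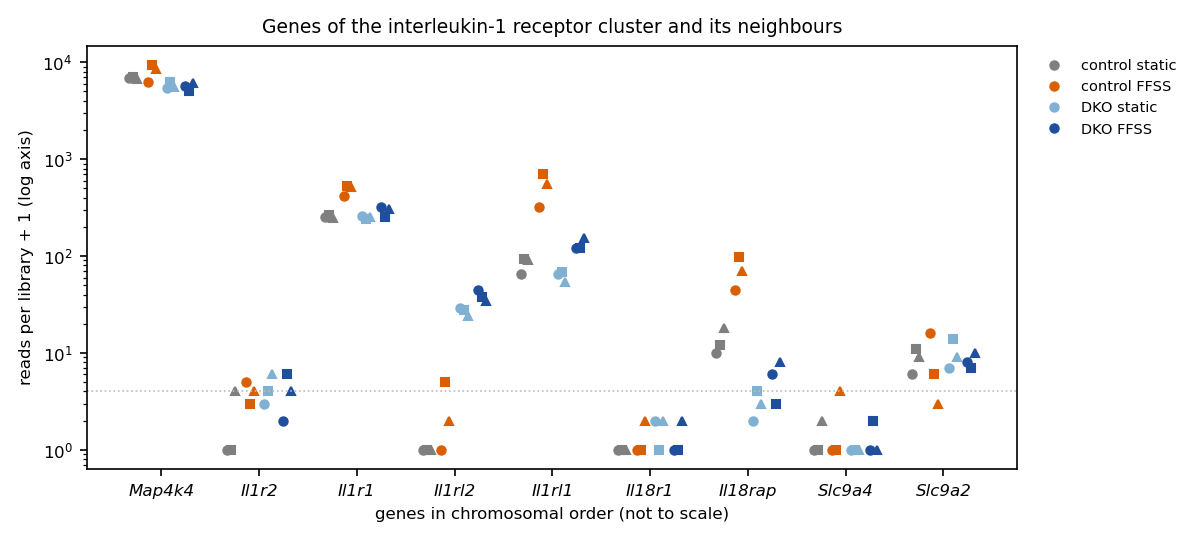
Reads per library plus 1 (log axis) for 9 genes in chromosomal order, coloured by group, with the replicate as the symbol and a dotted line at the floor of 3 reads. Il1rl1, Il1r1 and Il18rap are highest in control FFSS, Il1rl2 is read mainly in DKO, and Il1r2, Il18r1 and Slc9a4 lie near or below the floor.

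The other genes of the pathway were taken by list. Of the 7 other receptors, 2 passed the count filter, and Il18rap was the only call; Sigirr, an inhibitory receptor, had between 36 and 67 reads per library and was called in no comparison. Of 7 other ligands and binding proteins, 2 were tested. Il18bp, a secreted inhibitor of IL-18, rose under FFSS in control with 33, 29 and 33 reads in static and 30, 77 and 108 in FFSS libraries (log2 fold change 1.10 with an SE of 0.33, adjusted p = 0.0220 by edgeR). Replicate 1 was within the static range, and 13 of 20 alternatives kept this call. With the share of reads outside genes as a covariate the value was −0.39. Il18 itself was lower in DKO, with log2 fold changes of −1.41 in static (SE 0.19, edgeR adjusted p = 2.52e-05) and −1.19 under FFSS (SE 0.20, edgeR adjusted p = 0.00019).

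Among 5 genes of the inflammasome pathway, in which IL-1β and IL-18 are matured, 4 were tested. By edgeR none was called for FFSS in control, where 5.93% of all genes were, and 3 had an unadjusted p under 0.05 (46.3% of all genes). DESeq2 called 0 of them, and 784 of 14904 genes in all. Without control FFSS replicate 1 there was 1 call, beside 11.3% of all genes. In static cells all 4 were lower in DKO with an adjusted p under 0.05, which 54.2% of all genes reached in either direction. Of these, 2 were called by passing 2-fold, where 15.3% of all genes were, Casp4 with a log2 fold change of −1.38 (standard error 0.18, adjusted p = 1.31e-05 by edgeR) and Nlrp3 with −2.46 (SE 0.75, edgeR adjusted p = 0.0121). Nlrp3, the inflammasome sensor, rests on 4 to 9 reads in control static and 0 to 2 in DKO static libraries, and 18 of 19 alternatives kept its static call. Under FFSS all 4 were again lower with an adjusted p under 0.05 (56.6% of all genes, either direction) and 3 were called, where 17.2% of all genes were, with Casp1, the protease that cleaves pro-IL-1β, at −1.34 (SE 0.15, edgeR adjusted p = 3.81e-06), Casp4 at −1.90 and Nlrp3 at −3.12. The median over the list was −1.11 in static and −1.62 under FFSS, beside 0.01 and −0.05 over all genes.

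The 21 genes that carry the signal from the receptors, from Myd88 and the IRAK kinases to Rela, were all tested. Under FFSS 0 were called in control by edgeR, against 5.93% of all genes, and 11 had an unadjusted p under 0.05, against 46.3%. DESeq2 called 0 of them in control, and 784 of 14904 genes in all. In DKO edgeR called 0, against 0.0872% of all genes, and 1 had an unadjusted p under 0.05, against 13.5%. There DESeq2 called 0 of them, and 16 of 14904 genes in all. Leaving out control FFSS replicate 1 or adding the covariate also gave 0 calls in both lines. Their log2 fold changes ran from −0.56 to 0.57 in control and from −0.13 to 0.24 in DKO. Between genotypes 14 of the 21 had an adjusted p under 0.05 in static cells and 17 under FFSS, against 54.2% and 56.6% of all genes. Map3k8, a kinase acting below the IL-1 receptor, was the only call in the fit of all 12 libraries, where 15.3% and 17.2% of all genes were called, higher in DKO with log2 fold changes of 1.69 in static (SE 0.23, edgeR adjusted p = 2.03e-05) and 2.01 under FFSS (SE 0.22, edgeR adjusted p = 3.49e-06). The median over the list was −0.09 for FFSS in control and 0.04 for FFSS in DKO.

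Of 26 genes listed as targets of NF-kB, 19 were tested. For FFSS in control 5 were called, all higher, against 5.93% of all genes: the chemokine genes Ccl2 and Ccl7, Csf1, the growth factor of macrophages and osteoclast precursors, the adhesion gene Vcam1 and Nfkbiz. Ccl2 had 351, 380 and 342 reads in control static and 642, 2260 and 1605 in control FFSS libraries (log2 fold change 1.98 with an SE of 0.36, adjusted p = 0.00335 by edgeR). Replicate 1 was the lowest of the FFSS libraries for it, as for Il1rl1. Ccl7 gave 1.94 (SE 0.40), Csf1 1.43 (SE 0.30), Vcam1 1.11 (SE 0.26) and Nfkbiz 1.09 (SE 0.26). Without control FFSS replicate 1, 9 of the 19 were called, all higher, where 11.3% of all genes were called. With the share of reads outside genes as a covariate, none of the 19 was called higher and 1 was called lower, where 1.29% of all genes were called. The median over the list was 0.88 for FFSS in control and 0.24 for FFSS in DKO, beside 0.01 and −0.01 over all genes. In DKO 0 were called by edgeR, where 0.0872% of all genes were, and 5 had an unadjusted p under 0.05 (13.5% of all genes). DESeq2 called 0 of the 15 it tested, and 16 of 14904 genes in all. Without control FFSS replicate 1 there was 1 call, beside 0.255% of all genes. The difference of the FFSS effects was called for 0 of 19 by edgeR, where 0.651% of all genes were called. At an unadjusted p under 0.05 there were 6 (23.8% of all genes). DESeq2 called it for 2 of the 16 it tested, and for 175 of 14904 genes in all. Without control FFSS replicate 1, 6 of the 19 were called, all lower in DKO than in control, in a fit that called 7.61% of all genes.

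**Figure D5:**
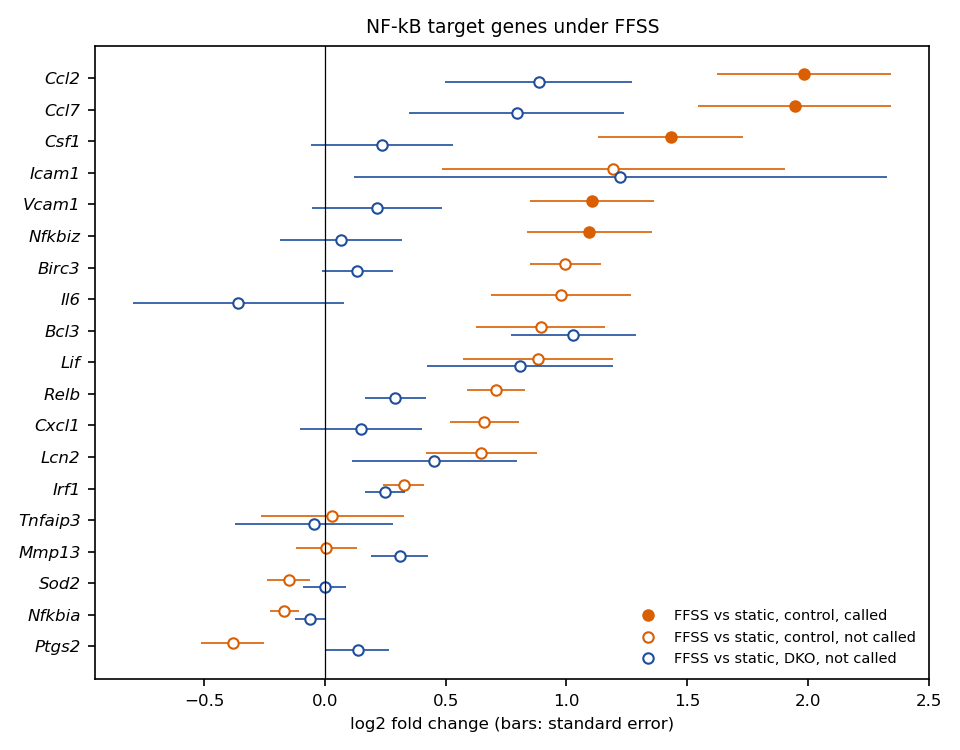
Log2 fold change of FFSS against static for the 19 tested NF-kB target genes in control (orange) and DKO (blue) cells, with standard errors as bars and filled points for calls. The 5 filled points are all in control, from 1.09 for Nfkbiz to 1.98 for Ccl2.

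Between genotypes in static cells 5 of these 19 were called, against 15.3% of all genes. The neutrophil chemokine gene Cxcl1 was lowest at −2.92 (SE 0.19, edgeR adjusted p = 2.21e-08), and the collagenase gene Mmp13 at 2.30 (SE 0.13) and Csf1 at 1.78 (SE 0.30) were higher in DKO, while Lif at −1.60 (SE 0.36) was lower. Under FFSS 9 were called, against 17.2% of all genes, 8 of them lower in DKO, including Cxcl1 at −3.43, Il6 at −2.06 and Ccl2 at −1.81, whereas Mmp13 was higher at 2.60. Il6 was read in small numbers, with 11, 17 and 16 reads in control FFSS and 3, 3 and 3 in DKO FFSS libraries. Without control FFSS replicate 1 there were 11 calls, 10 of them lower, beside 20.1% of all genes. The log2 fold changes of the list had a median of −0.55 in static and −0.97 under FFSS.

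Among 11 transcription factor genes of the GATA, AP-1 and PU.1 families, which are known regulators of Il1rl1 or its relatives, 10 were tested. Fosb, a part of AP-1, was the only call for FFSS in control, against 5.93% of all genes, with 82, 86 and 84 reads in static and 164, 272 and 229 in FFSS libraries (log2 fold change 1.32 with an SE of 0.17, adjusted p = 0.000131 by edgeR). In DKO its value was 0.19 (edgeR adjusted p = 0.809), with 49, 34 and 39 reads in static and 52, 34 and 49 in FFSS libraries. Gata2 went the other way in control, with 162, 155 and 137 reads in static and 127, 67 and 58 in FFSS, and did not reach a 2-fold change (edgeR adjusted p = 0.00942). Without control FFSS replicate 1 there were 3 calls, 2 higher and 1 lower, beside 11.3% of all genes, and with the covariate 0, beside 1.29%. In static cells Fosl1 at −2.13 (SE 0.22, edgeR adjusted p = 3.06e-06) and Jun at −1.43 (SE 0.12, edgeR adjusted p = 4.20e-07) were called lower in DKO, 2 of 10 against 15.3% of all genes. Under FFSS 4 were called, against 17.2% of all genes, Fosl1 at −2.13, Fosb at −2.11 and Jun at −1.74 lower and Gata2 at 1.00 higher.

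Cells known for high ST2 could also carry Il1rl1 reads. Of 7 markers of mast cells, basophils and innate lymphoid cells, Fcer1a, Cpa3 and Ms4a2 had 0 reads in all 12 libraries. Gata3, the only 1 tested, had 18, 19 and 31 reads in control static and 19, 53 and 53 in control FFSS (log2 fold change 0.79, edgeR adjusted p = 0.1065). In DKO it had 25, 32 and 41 in static and 20, 29 and 36 under FFSS. Kit, Gata1 and Il7r had at most 10 reads in any library. The list summed to between 1.09 and 1.89 CPM in control static and between 1.13 and 2.62 CPM in control FFSS. In DKO it summed to between 2.14 and 2.72 CPM in static and between 1.49 and 2.80 CPM under FFSS. Of the leukocyte markers, Cd3e was at 0 in all 12 libraries. The list summed to between 0.845 and 1.21 CPM in control static and between 1.70 and 2.13 CPM in control FFSS, with no overlap, and to between 2.43 and 3.05 CPM in the DKO libraries. Of the 2 tested, Csf1r, the macrophage receptor for the Csf1 product, was called higher under FFSS in control, beside 5.93% of all genes. It had 8, 5 and 5 reads in static and 12, 24 and 16 in FFSS libraries. Its log2 fold change was 1.43 with an SE of 0.36 (adjusted p = 0.00783 by edgeR). Lyz2, the other tested marker, had 8, 12 and 14 reads in control static and 19, 9 and 20 in control FFSS libraries. It was not called (log2 fold change 0.42, edgeR adjusted p = 0.336). In DKO Lyz2 had 37, 41 and 38 reads in static and 34, 38 and 38 in FFSS libraries. The part of these markers in the FFSS values of Il1rl1 was not tested. Osteoblast markers summed to between 19610 and 23650 CPM in control static and between 6453 and 19830 CPM in control FFSS, ranges that overlap. By gene, all 6 tested were lower under FFSS in control, with a median log2 fold change of −0.94, beside 0.01 over all genes. Of these, 2 were called, Sp7 at −1.59 (edgeR adjusted p = 0.0129) and Col1a1, beside 5.93% of all genes. Col1a1 had 345694, 286174 and 346093 reads in static and 290257, 108228 and 110572 in FFSS libraries. Replicate 1 was within the static range for it. In DKO the sum was between 58240 and 65650 CPM in static and between 60440 and 62520 CPM in FFSS libraries, again overlapping. The DKO median was −0.04, with 0 calls. The part of the osteoblast markers in the FFSS values was not tested.

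The genes whose pattern over the 12 libraries was most like that of Il1rl1, by Pearson's r of log2 CPM among 11414 genes, were Pmepa1 (0.990), which encodes an inhibitor of TGF-β signalling, Apex2 (0.980), Dok1 (0.980), Nol10 (0.980) and the pseudokinase gene Trib1 (0.979). Pmepa1 had 179.9 ± 2.21 CPM in static and 287.7 ± 26.8 CPM in FFSS control libraries, and 165.8 ± 2.48 and 210.5 ± 2.29 CPM in the DKO ones, a far narrower range of levels than that of Il1rl1. The genes most like Il33 were Itm2a (0.995), Rprd2 (0.993) and Capn6 (0.992), each lower in both DKO groups. Those most like Il1rap were Tmem126a (0.967), 1110002N22Rik (0.966) and Odc1 (0.954), and those most like Il1r1 were BC016423 (0.985), Prpf31 (0.972) and Map3k6 (0.971). The libraries share 4 group means, so these r values describe the groups more than the spread within them.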

How the data were processed

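RNA-seq was performed on 12 Ocy454 libraries. Per the study's methods and the labels, the authors sequenced single-end reads on a BGISEQ-500, aligned them to mm9 with STAR and counted reads per Ensembl gene with HTSeq, not stranded. The deposited values are raw counts, neither normalised nor filtered, 1 table per library. Reads in several places or shared by overlapping genes are left out, at 18.2% to 21.7% and 3.02% to 3.22% of assigned reads. Coordinates are 1-based mm9 (GENCODE M1), and sequences are from RefSeq.

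Counts were fitted with edgeR 4.0.16 (robust quasi-likelihood, TMM, 12 libraries as 4 groups). As in the study's methods, a gene was dropped when at least 2 libraries had 0 counts for it, leaving 14904 of 24360 with any count. A call needed a Benjamini-Hochberg adjusted p under 0.05 together with a change over 2-fold. Intervals are the estimate ± 1.96 SE, with SE from the F statistic. Log2 CPM used a prior count of 2. The steps were tested on simulated data with known changes. Members and lists were chosen with earlier results of these data known. Named genes were the 7 members, up to 4 called genes per list and comparison by size of change, and the 5 (Il1rl1) or 3 (other members with log2 CPM above 1) most alike by r; Nfkbiz, Gata2, Sigirr, Il1rl2 and other genes given for context were chosen after their values were seen. Alternatives were other scaling, filters, DESeq2 1.42.0, a replicate block, fits of 6 libraries and leaving out each library; the covariate was added after seeing the data.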

Additional observations from a re-analysis of the deposited data

Results flagged for a closer look

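Fosb is listed here because its difference of FFSS effects between genotypes was a call. Its p-value is therefore the rule of choice and adds no support. The interaction was −1.13 (SE 0.29, edgeR adjusted p = 0.0434), where 0.651% of all genes were called. The log2 fold change was 1.32 in control and 0.19 in DKO. All 3 control FFSS libraries were above all static ones, while the DKO groups overlapped. Over 19 alternatives the interaction ran from −1.29 to −0.84 and was called in 6, with adjusted p from 8.10e-05 to 0.130.

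Reads outside annotated genes, which are counted for no gene and enter the fits only as a covariate in an alternative, were above the static level of the same line in every FFSS library. The highest share was 11.5% of assigned reads in control FFSS, against at most 5.67% in control static. In DKO FFSS the highest was 9.64%, against at most 7.93% in DKO static.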

How the results depend on the processing

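Calls for FFSS in control numbered 884, 193 with the share of reads outside genes as a covariate, 453 with the 6 libraries alone and 497 to 1683 leaving out 1 library. For FFSS in DKO they numbered 13, then 49, 42 and 8 to 38. For the interaction they numbered 97, 175 by DESeq2 and 41 to 1134 leaving out 1 library, the highest without control FFSS replicate 1. Genotype calls stayed between 2127 and 2634 in static and between 2289 and 2994 under FFSS. Library totals alone moved the median of all genes to 0.13 for FFSS in control, −0.13 for the interaction and −0.25 for genotype under FFSS, and the split of higher and lower calls from 590 and 294 to 784 and 229, from 56 and 41 to 42 and 72, and from 1230 and 1335 to 943 and 1778 (static genotype, from 1190 and 1088 to 1017 and 1242).

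With the covariate signs turned for Il18bp for FFSS in control, from 1.10 to −0.39 and for Nfkbiz, from 1.09 to −0.0089. Il1r1 between genotypes in static was −0.034 with library totals and −0.081 with the covariate. Il1rn there was −0.051 and −0.29, and −0.25 to 0.59 leaving out 1 library. Il1rn for FFSS in DKO was −0.35 to 0.041 leaving out 1 library. The cause was not tested. The replicate block gave 882, 14, 84, 2271 and 2545 calls in the 5 comparisons; same-numbered libraries did not deviate together (mean r 0.00226, from −0.0603 to 0.0631), so the numbers do not pair them. Il1a, Il1b, Il1rl2 and Il18r1 are limited by depth, and floors cover counting error only.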
